A study of Mus musculus with 24 samples.

Results

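The endothelial and angiogenic genes followed here are Cldn5, Pecam1, Cdh5, Vegfa, Kdr, Flt1, Tek, Tie1 and Eng. They were taken as a named list, and a probe set was kept where the platform annotation named 1 of these 9 genes and no other gene. All 9 genes were measured, of 8251 genes named on the array, by 11 of the 12422 probe sets tested, with 2 probe sets each for Flt1 and Tie1 and 1 for each other gene. No probe set named a listed gene together with another one.

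Uterine RNA was measured on Affymetrix mouse arrays in progesterone receptor knockout (PRKO) and wild-type (WT) mice to find which genes progesterone (P4) changes through its receptor. There were 8 groups of 3 arrays: PRKO with P4 and PRKO with vehicle, and WT with P4 and WT with vehicle, each at 4 h and at 40 h. All mice were ovariectomized at 6 weeks of age and treated 2 weeks later, so every group lacked ovarian hormones, and a dose was 1 mg of P4 in sesame oil or the oil alone. The 4 h groups received 1 injection and the 40 h groups 4 injections 12 h apart, so time and number of injections cannot be told apart. PRKO mice lack the receptor in the whole animal, and the labels name no strain. Each RNA pool came from 5 mice. Whether a group's 3 arrays hold 3 pools or repeat 1 pool is not stated, so p-values measure the spread between arrays, which may be technical. Several comparisons use the same arrays and are therefore linked.

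The vascular endothelium of the uterus is remodelled in each cycle and in early pregnancy. VEGF-A, secreted by surrounding cells, acts on receptors of the endothelial surface, and the angiopoietins act on the receptor Tek to keep vessels quiescent or to loosen them. Cadherin, claudin and Pecam1 contacts between endothelial cells set how permeable the vessel wall is. P4 acts on the uterus through the progesterone receptor, which is found in stroma, epithelium and muscle.

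The promoters of 3 genes are shown because Cldn5 was the gene that passed a test, and because Tek and Flt1 were the genes of which a probe set had all WT P4 arrays below all WT vehicle arrays at 4 h. Each is the 300 bases from 250 before to 50 after the RefSeq transcription start on GRCm38.p6, read in the direction of the transcript, at chr16:18776597-18776896 (plus strand) for Cldn5, chr4:94739039-94739338 (plus strand) for Tek and chr5:147725962-147726261 (minus strand) for Flt1. Capitals mark matches to the motifs searched.
Cldn5: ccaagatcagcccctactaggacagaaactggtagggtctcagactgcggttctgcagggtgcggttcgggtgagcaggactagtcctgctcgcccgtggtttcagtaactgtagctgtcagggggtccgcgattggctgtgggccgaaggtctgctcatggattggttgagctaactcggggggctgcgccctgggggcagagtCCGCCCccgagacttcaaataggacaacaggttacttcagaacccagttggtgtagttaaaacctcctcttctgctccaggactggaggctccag
Tek: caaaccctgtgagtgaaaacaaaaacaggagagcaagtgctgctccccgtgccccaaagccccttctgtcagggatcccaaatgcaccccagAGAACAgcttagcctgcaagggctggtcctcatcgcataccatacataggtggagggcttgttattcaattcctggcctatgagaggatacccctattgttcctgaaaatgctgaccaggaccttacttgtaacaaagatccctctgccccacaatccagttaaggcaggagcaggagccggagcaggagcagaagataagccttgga
Flt1: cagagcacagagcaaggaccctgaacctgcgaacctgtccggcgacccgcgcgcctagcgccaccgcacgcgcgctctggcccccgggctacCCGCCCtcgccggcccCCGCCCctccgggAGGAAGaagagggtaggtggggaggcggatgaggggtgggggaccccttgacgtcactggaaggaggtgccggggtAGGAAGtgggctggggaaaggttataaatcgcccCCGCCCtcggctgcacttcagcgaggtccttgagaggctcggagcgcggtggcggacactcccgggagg
On both strands, 5 motifs were searched: the progesterone and glucocorticoid receptor half-site TGTTCT, the ETS core AGGAAG, the hypoxia response core ACGTG, the FOXO core TGTTTAC and the Sp1 GC box GGGCGG. The Cldn5 window held 1 GC box and none of the other 4 motifs. The Tek window held 1 half-site, on the opposite strand, and the Flt1 window held 2 ETS cores and 3 GC boxes. Among the 8 windows of 7 listed genes (Vegfa has 2), 1 held the half-site, 3 the ETS core, 1 the hypoxia core, 0 the FOXO core and 5 the GC box. Of all 32851 RefSeq windows of that length, 19.0% held the half-site, 35.4% the ETS core, 19.6% the hypoxia core, 3.65% the FOXO core and 35.7% the GC box. A match describes the letters of a window and no bound site.

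Array medians of the deposited signal lay between 323.2 and 342.6. The 3 prime to 5 prime signal ratio of Gapdh, which is high where RNA is degraded, was 3.25 on array 2 of the WT P4 4 h group and 3.67 on array 2 of the WT vehicle 4 h group, against 1.23 to 1.86 on the other 22 arrays. No gene of the stroma, smooth muscle or epithelium lists was at 0 on any array, and 13 of 15, 11 of 12 and 14 of 17 of them had a mean signal above the median of all probe sets. The probe set for Pgr, the deleted gene, averaged 116 ± 8.88 in PRKO P4 and 156 ± 12.5 in WT P4 uteri at 40 h (SD, n = 3 each; log2 fold change -0.34 ± 0.08 SE, adjusted p = 0.0307 by limma), and its other 3 differences between genotypes did not pass (adjusted p of 0.969 or more). Whether this probe set lies within the deleted stretch of the gene is not stated, so it does not check the genotypes. In whole uteri, fewer cells of a type and less RNA per cell cannot be told apart.

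Of the endothelial and angiogenic genes, Cldn5 fell after 40 h of P4 in WT uteri, to 0.577 times the vehicle level. No other listed gene passed the test for P4 in either genotype at either time. The median log2 fold change of the 11 probe sets was -0.07 at 4 h and -0.02 at 40 h in WT uteri, and -0.08 at 4 h and -0.00 at 40 h in PRKO uteri, beside 0.00, 0.00, -0.00 and -0.04 over all probe sets in the same order. Fold changes are differences of log2(signal + 32), from signals scaled to a trimmed mean of 500 on each array, and are given with the standard error of limma's fit. A test was passed at a Benjamini-Hochberg adjusted p under 0.05 over all 12422 probe sets.

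**Figure D1:**
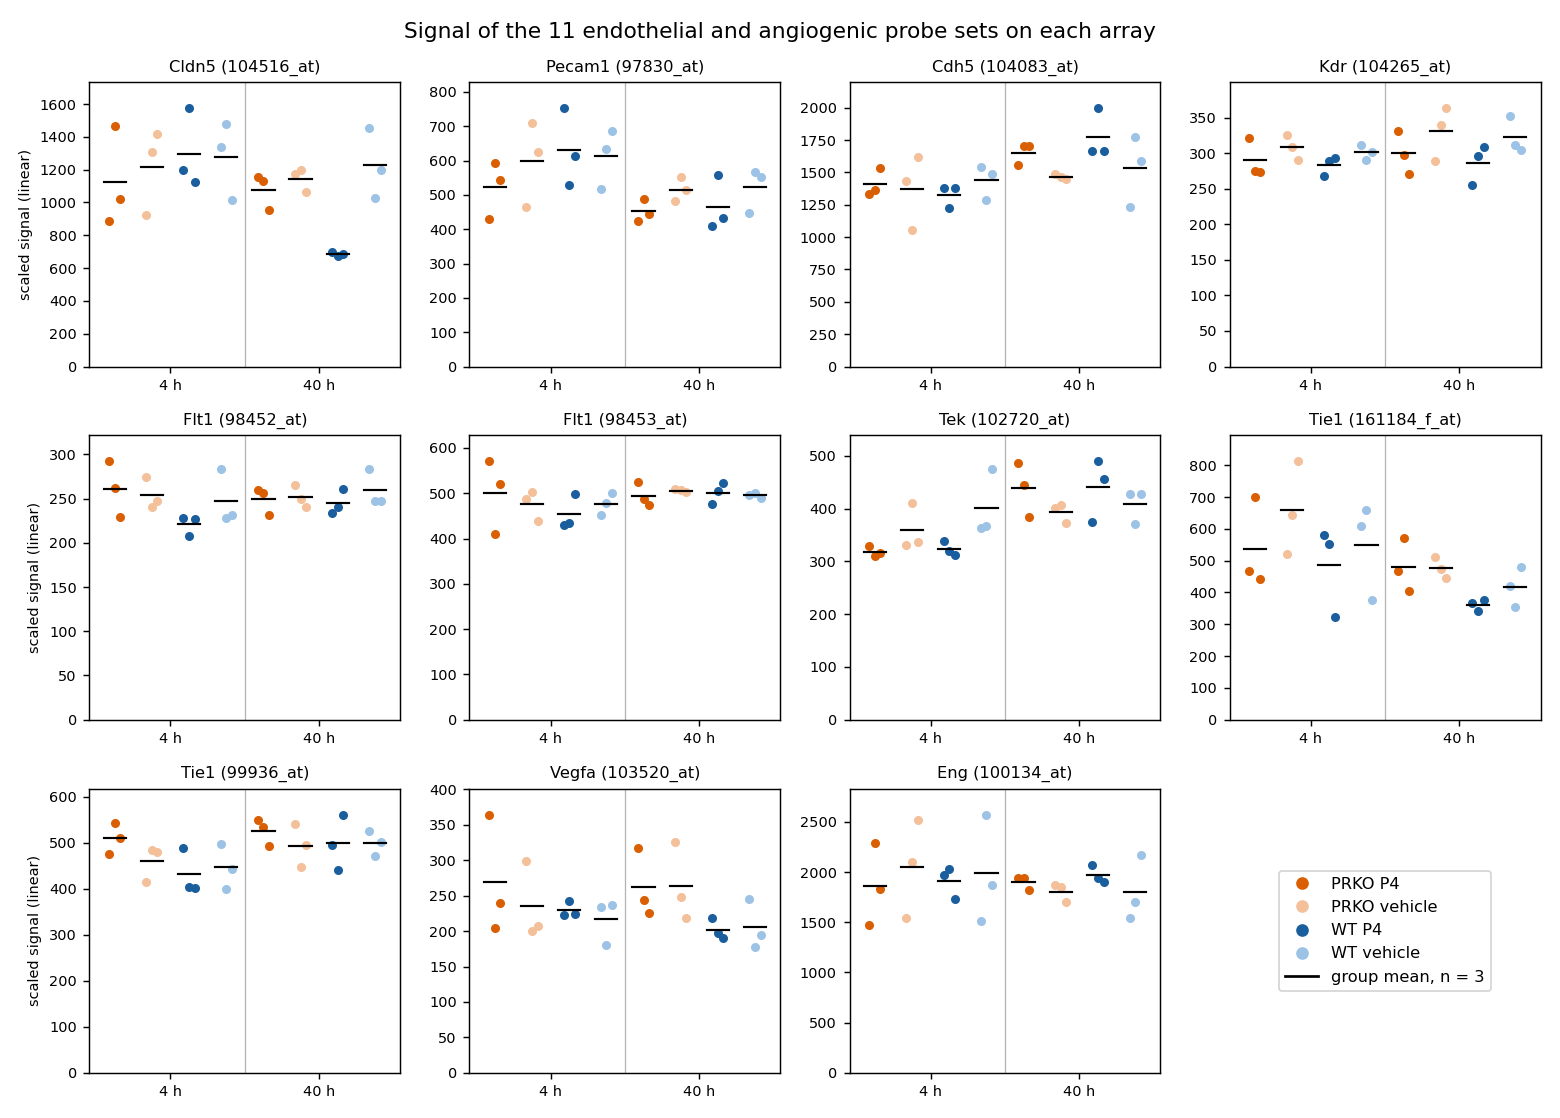
Scaled signal (linear, from 0) of each of the 11 probe sets on the 24 arrays, 1 panel per probe set, with PRKO P4, PRKO vehicle, WT P4 and WT vehicle arrays as points at 4 h and at 40 h and black bars at the group means. The 3 WT P4 arrays at 40 h lie at 676 to 700.2 for Cldn5, below every other array, while in the other 10 panels the WT P4 and vehicle arrays at 40 h overlap.

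Cldn5 encodes claudin-5, the main tight junction claudin of endothelium. In PRKO uteri at 4 h its signal was 885, 1469 and 1018 with P4, against 924, 1310.2 and 1419.6 with vehicle. WT uteri at 4 h had 1195, 1575 and 1124 with P4, against 1337, 1476 and 1017 with vehicle. At 4 h the arrays therefore overlapped in both genotypes, with log2 fold changes of -0.12 ± 0.18 in PRKO uteri and 0.02 ± 0.18 in WT uteri (adjusted p of 1.00 and 0.999, limma). In PRKO uteri at 40 h the signal was 1154, 1128 and 951 with P4, against 1176, 1197 and 1063 with vehicle. WT uteri at 40 h had 700.2, 676 and 684 with P4, against 1456, 1027 and 1197 with vehicle. The 3 WT P4 arrays at 40 h had an SD of 12.4 and lay below all other 21 arrays, whereas the WT vehicle arrays of that time were spread with an SD of 216. The log2 fold change of P4 at 40 h was -0.79 ± 0.18 in WT uteri (95% interval -1.17 to -0.42, adjusted p = 0.0240, limma) and -0.09 ± 0.18 in PRKO uteri (interval -0.46 to 0.29, adjusted p = 0.897). This was 1 of 11 probe sets, or 9.09%, where 1.54% of all probe sets passed in WT uteri at 40 h and 0.821% passed as lower.

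The P4 effect on Cldn5 at 40 h differed between PRKO and WT uteri by 0.71 ± 0.25 (interval 0.18 to 1.23), which did not pass over all probe sets (adjusted p = 0.457, limma). None of the 11 probe sets passed for that difference, where 0.105% of all probe sets did, and 1, Cldn5, had an unadjusted p under 0.05, beside 9.10% of all. Under P4 at 40 h, Cldn5 signal was higher on every PRKO array than on any WT array, by 0.62 ± 0.18 (adjusted p = 0.0639). The WT effect at 40 h was lower than the WT effect at 4 h by a log2 difference of -0.82 ± 0.25 (interval -1.35 to -0.29, adjusted p = 0.253, limma). The WT fall thus passed the test while its difference from the PRKO effect, and from the 4 h effect, did not.

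The WT call at 40 h was lost in 5 of the 6 fits that left out 1 of its arrays. It was lost when any 1 of the 3 P4 arrays was left out (adjusted p of 0.0715, 0.0918 and 0.0764 without arrays 1, 2 and 3), without vehicle array 1 (0.111) and without vehicle array 3 (0.0780), and it was kept without vehicle array 2 (0.0263). The log2 fold change in these fits ran between -0.91 and -0.67.

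Adipose markers fell in the same arrays in which Cldn5 was low. Of 14 measured adipose markers, 7 passed the test as lower with P4 in WT uteri at 40 h, with a median log2 fold change of -0.81. Adipoq, the adipocyte hormone adiponectin, changed by -1.41 ± 0.25 (adjusted p = 0.00384), and Lpl, the lipase that frees fatty acids from lipoproteins, by -1.21 ± 0.21 (adjusted p = 0.00310). The summed signal of the 14 markers was 8461 to 13773 on the WT P4 arrays, against 18391 to 21657 on the WT vehicle arrays, and none of them was at 0 on any array. In PRKO uteri at 40 h the summed signal was 16631 to 19599 with P4, against 20827 to 22854 with vehicle. There 0 of 14 passed (1 unadjusted, beside 6.69% of all probe sets), with a median of -0.23. Over the 24 arrays, the mean log2 signal of the markers was 8.66, 8.86 and 9.21 on the WT P4 arrays at 40 h and 9.40 to 10.04 on the other 21. With that mean as a covariate, the Cldn5 change was -0.49 ± 0.29 (adjusted p = 0.843) and 1 of 12422 probe sets passed at all. Among the other lists in WT uteri at 40 h, stroma markers passed as higher in 5 of 15 genes, beside 1.54% of all probe sets passing in either direction. Of the 15, 4 had estimates below 0. The summed signal of the 15 was 45086 to 50670.1 with P4, against 34069 to 40873 with vehicle. Epithelium markers passed as higher in 1 of 17 genes and as lower in 2 (7 unadjusted). Leukocyte and macrophage markers passed in 0 of 15 genes (2 unadjusted), and blood and platelet markers in 0 of 5 (1 unadjusted). Smooth muscle markers passed in 0 of 12 genes, although 7 had an unadjusted p under 0.05 (11.7% of all probe sets did), with summed signals of 47831 to 51965 with P4, against 41885 to 43715 with vehicle. The Gapdh ratio was 1.23 to 1.30 on those P4 arrays, against 1.48 to 1.60 on the vehicle arrays, and with that ratio as a covariate the Cldn5 change was -0.70 ± 0.15 (adjusted p = 0.0146). The part of these markers in the Cldn5 result was not tested.

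**Figure D2:**
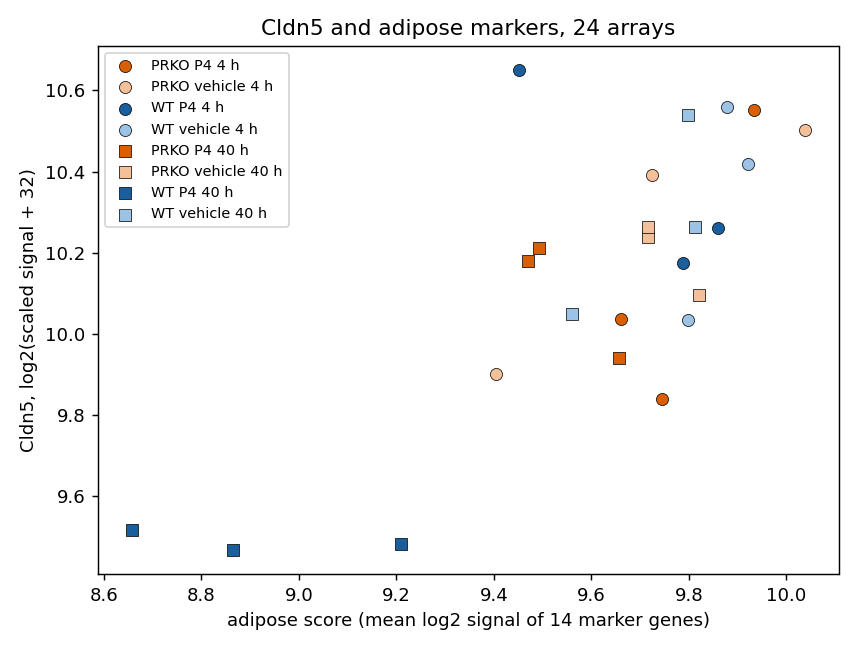
Cldn5 as log2(scaled signal + 32) against the mean log2 signal of 14 adipose marker genes, 1 point per array and 24 in all, coloured by genotype and treatment, with circles at 4 h and squares at 40 h. The 3 WT P4 arrays at 40 h lie apart at the lower left, at marker means of 8.66 to 9.21, and the other 21 arrays lie between 9.40 and 10.04.

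Cdh5 and Pecam1, the other contact proteins of endothelium, did not pass. Cdh5 is VE-cadherin, which joins endothelial cells at adherens junctions. At 40 h its signal was 1557, 1701 and 1701 with P4, against 1490, 1463 and 1446 with vehicle in PRKO uteri. WT uteri at 40 h had 1667, 1996 and 1668 with P4, against 1230, 1775 and 1590 with vehicle. The PRKO P4 arrays at 40 h were all above the PRKO vehicle arrays, while the WT arrays overlapped, and the log2 fold changes were 0.17 ± 0.13 in PRKO uteri and 0.22 ± 0.13 in WT uteri (adjusted p of 0.730 and 0.568, limma). At 40 h in PRKO uteri, Cdh5 was 1 of 11 probe sets whose P4 and vehicle arrays did not overlap, where 22.3% of all probe sets did not and 5.88% had all P4 arrays higher. Pecam1, an adhesion molecule of endothelial cells, platelets and some leukocytes, had signals of 408 to 557 with P4, against 447 to 566 with vehicle, in WT uteri at 40 h. Its log2 fold changes for P4 lay between -0.18 and 0.04 over the 2 genotypes and 2 times, with 95% intervals reaching -0.50 and 0.36. In the same WT comparison at 40 h in which Cldn5 signal was lower, the estimates for Cdh5 and Pecam1 had opposite signs. Their intervals held 0.

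Vegfa, the ligand VEGF-A, had log2 fold changes for P4 of 0.16 ± 0.18 at 4 h and -0.00 ± 0.18 at 40 h in PRKO uteri, and of 0.08 ± 0.18 at 4 h and -0.02 ± 0.18 at 40 h in WT uteri (adjusted p of 0.980 or more, limma). Its signal at 40 h was 317, 244 and 226 with P4, against 326, 248 and 218 with vehicle, in PRKO uteri. It was 218, 198 and 189.8 with P4, against 246, 178 and 195 with vehicle, in WT uteri. Within a genotype the P4 and vehicle arrays overlapped, and PRKO array 1 was the highest of its group at both times and both treatments. The 95% intervals of the fit at 40 h were -0.37 to 0.36 in PRKO uteri and -0.38 to 0.35 in WT uteri. Changes of either sign within them therefore remain possible.

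Kdr and Flt1, the receptors VEGFR2 and VEGFR1, differed little between arrays. Kdr is the main signalling receptor of VEGF-A in endothelium, and its signal lay between 255.6 and 363 over all 24 arrays. Its log2 fold changes for P4 were -0.08 at 4 h and -0.13 at 40 h in PRKO uteri, and -0.08 at 4 h and -0.16 at 40 h in WT uteri, each ± 0.09. All 4 were below 0 and none passed (adjusted p of 0.544 or more, limma), and in WT uteri at 40 h the interval ran from -0.35 to 0.03. Flt1 binds VEGF-A tightly with weak signalling of its own and is also made as a soluble form that holds VEGF-A back. Its probe set 98452_at had signals of 228, 208 and 226 with P4, against 283, 228 and 231 with vehicle, in WT uteri at 4 h. All 3 P4 arrays were below the vehicle arrays, although the highest P4 array and the lowest vehicle array nearly met, and the log2 fold change was -0.14 ± 0.09 (adjusted p = 0.957). The second Flt1 probe set, 98453_at, had overlapping arrays there and changed by -0.07 ± 0.09. Over the 4 comparisons of P4 with vehicle, the 2 probe sets ran from -0.14 to 0.06.

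Tek and Tie1 are the receptor pair of the angiopoietin system. Tek, also called Tie2, binds angiopoietins, and Tie1 binds none itself and modulates Tek. At 4 h the Tek signal was 329, 309.9 and 317 with P4, against 330.1, 411 and 336 with vehicle, in PRKO uteri. WT uteri at 4 h had 338, 320.2 and 311 with P4, against 362, 367 and 475 with vehicle. The P4 arrays were below all vehicle arrays in both genotypes, by a narrow margin in PRKO uteri, and vehicle array 3 stood high in the WT group. The log2 fold changes were -0.15 ± 0.11 in PRKO uteri (adjusted p = 1.00, limma) and -0.28 ± 0.11 in WT uteri (interval -0.51 to -0.05, adjusted p = 0.578). Without both WT arrays of high Gapdh ratio the WT value was -0.33 (adjusted p = 0.767), and without vehicle array 3 it was -0.16 (adjusted p = 0.722). In WT uteri at 4 h, 0 of 11 probe sets passed, where 0.708% of all did, and 1, Tek, had an unadjusted p under 0.05, beside 6.23% of all. Of the 11, 2 probe sets, of Tek and Flt1, had all WT P4 arrays lower there, where 6.67% of all probe sets had arrays that did not overlap and 3.01% had all P4 arrays lower. In PRKO uteri at 4 h, 0 of 11 passed and 0 had an unadjusted p under 0.05, where 0% of all passed by limma and 236 had an unadjusted p under 0.05, and Tek was the 1 probe set whose arrays did not overlap, beside 4.31% of all probe sets. In WT uteri at 40 h, where 19.8% of all probe sets had arrays that did not overlap, Cldn5 was the 1 of 11.

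At 40 h the Tek estimates were above 0, at 0.14 ± 0.11 in PRKO uteri and 0.09 ± 0.11 in WT uteri (adjusted p of 0.730 and 0.821, limma). The WT effect at 40 h was above that at 4 h by 0.37 ± 0.15 (adjusted p = 0.607, limma). None of the 11 probe sets passed for this difference of the WT effect between times, where 0.475% of all did, and 2, of Cldn5 and Tek, had an unadjusted p under 0.05, with opposite signs, beside 6.39% of all.

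The 2 Tie1 probe sets did not follow each other. Probe set 161184_f_at varied most of the 11 within groups, with an SD of 0.291 in log2 signal, larger than in 96.3% of all probe sets, and its arrays ran from 324 to 812. Its ID ending _f marks an Affymetrix design whose probes can match a family of transcripts. Probe set 99936_at had an SD of 0.123 and ran from 400.0 to 561. For P4 in PRKO uteri at 4 h, the estimates were -0.29 ± 0.21 for 161184_f_at and 0.14 ± 0.10 for 99936_at, and in WT uteri at 40 h they were -0.19 ± 0.21 and -0.01 ± 0.10 in the same order. Neither passed in any comparison.

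Eng, endoglin, a co-receptor for TGF-beta and BMP ligands in endothelium, had overlapping P4 and vehicle arrays in both genotypes at both times. Its signal in WT uteri at 40 h was 2071, 1937 and 1899.95 with P4, against 1546, 1698 and 2167 with vehicle. The log2 fold changes for P4 were -0.13 at 4 h and 0.08 at 40 h in PRKO uteri, and -0.02 at 4 h and 0.14 at 40 h in WT uteri, each ± 0.18. In WT uteri at 40 h the 10 probe sets other than Cldn5 lay between -0.19 and 0.22, with adjusted p between 0.544 and 0.990. In PRKO uteri at 40 h, 0 of 11 passed and 0 had an unadjusted p under 0.05, where 0% of all probe sets passed by limma and 831 had an unadjusted p under 0.05. For the genotype difference of the 4 h effect, 0 of 11 passed, where 0.0966% of all did. For that difference 0 had an unadjusted p under 0.05, beside 3.49% of all.

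**Figure D3:**
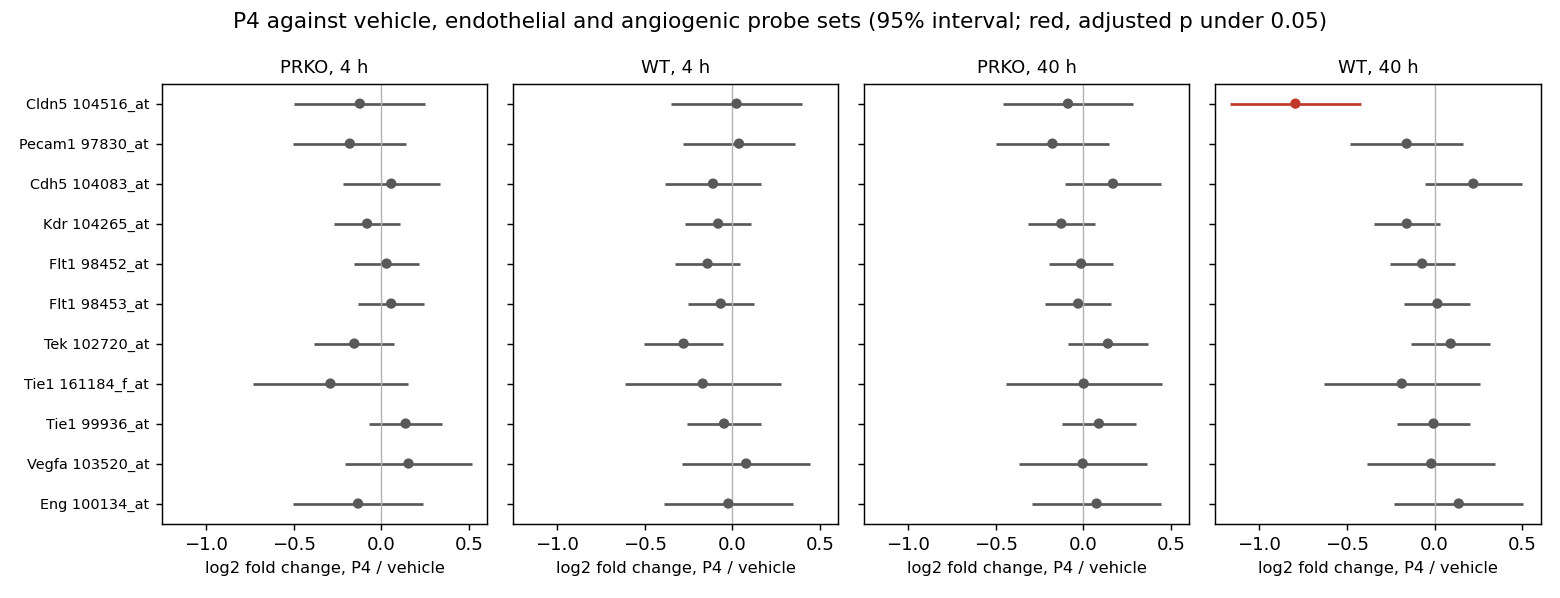
Log2 fold change of P4 over vehicle for the 11 probe sets, 1 panel each for PRKO at 4 h, WT at 4 h, PRKO at 40 h and WT at 40 h, as points with 95% intervals from limma, red where the adjusted p is under 0.05. The 1 red point is Cldn5 in WT uteri at 40 h, at -0.79, and apart from Tek in WT uteri at 4 h every other interval holds 0.

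Between genotypes, none of the 11 probe sets passed in vehicle uteri or under P4. In vehicle uteri, 0 of 11 passed at 4 h, where 0.185% of all did, and 0 of 11 at 40 h, where 0.0644% did. At either time 0 had an unadjusted p under 0.05, beside 5.02% of all at 4 h and 3.08% at 40 h. Log2 fold changes of PRKO over WT ran from -0.14 to 0.27 at 4 h and from -0.08 to 0.31 at 40 h, with Vegfa highest at 40 h (0.31 ± 0.18, adjusted p = 1.00, limma). The arrays did not overlap for 0 of 11 at 4 h, beside 6.05% of all probe sets, and for 1 of 11 at 40 h, Flt1 98453_at, beside 10.3%. That probe set had 508.8, 506.6 and 502 in PRKO vehicle uteri, against 496, 501 and 489 in WT vehicle uteri, a log2 difference of 0.03 ± 0.09.

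Under P4, 0 of 11 passed at 4 h, where 1.22% of all did, and 0 of 11 at 40 h, where 2.59% did and 1, Cldn5, had an unadjusted p under 0.05, beside 22.2% of all. At 4 h, 2 probe sets had an unadjusted p under 0.05, beside 7.81% of all. Flt1 98452_at had 292, 262 and 229 in PRKO P4 uteri, against 228, 208 and 226 in WT P4 uteri, with no overlap (0.21 ± 0.09, adjusted p = 0.516, limma). Tie1 99936_at had 474.5, 542 and 509.6 in PRKO P4 uteri, against 489, 404 and 401 in WT P4 uteri, and overlapped (0.23 ± 0.10, adjusted p = 0.570). The arrays did not overlap for 1 of 11 probe sets at 4 h, beside 10.3% of all. At 40 h, Cldn5, Tie1 161184_f_at and Vegfa were higher on every PRKO P4 array than on every WT P4 array, 3 of 11 beside 35.2% of all probe sets without overlap and 11.5% with all PRKO arrays higher. Vegfa had 317, 244 and 226 in PRKO P4 uteri, against 218, 198 and 189.8 in WT P4 uteri (0.32 ± 0.18, adjusted p = 0.282), and Tie1 161184_f_at differed by 0.37 ± 0.21 (adjusted p = 0.304). The Vegfa difference was about as large in vehicle uteri of that time, at 0.31, and the P4 effect on Vegfa at 40 h differed between genotypes by 0.01 ± 0.25.

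In vehicle uteri, 40 h was set against 4 h in each genotype, a comparison in which time, the number of oil injections and any difference in array processing cannot be told apart. None of the 11 probe sets passed in PRKO uteri, where 0% of all did, or in WT uteri, where 0.29% did. In either, 0 had an unadjusted p under 0.05, beside 11.1% of all in PRKO and 15.3% in WT uteri. The largest estimates were those of Tie1 161184_f_at, at -0.42 ± 0.21 in PRKO and -0.34 ± 0.21 in WT uteri (adjusted p of 0.474 and 0.465, limma). This was the 1 probe set of 11 whose PRKO arrays did not overlap between times, beside 18.6% of all probe sets, and 0 of 11 did so in WT uteri, beside 16.3%. Pecam1 was at -0.19 ± 0.15 in PRKO and -0.21 ± 0.15 in WT uteri, and Cldn5 at -0.07 ± 0.18 and -0.05 ± 0.18.

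Over all 13 comparisons, 1 of 143 tests of the 11 probe sets passed and 8 had an unadjusted p under 0.05. Of these 8, 4 were of Cldn5, 2 of Tek and 1 each of Flt1 and Tie1. Of all probe sets, between 0% and 2.59% passed by limma in a comparison, and between 1.90% and 22.2% had an unadjusted p under 0.05. The 8 group means of Cldn5 spanned 0.873 in log2 signal, more than in 97.3% of all probe sets, with the WT P4 40 h group lowest. Those of Tie1 161184_f_at spanned 0.793 and those of Pecam1 0.443, whereas those of Eng spanned 0.170 and those of Flt1 98453_at 0.148, less than in most probe sets (percentiles 14.8 and 8.65). Within groups, Cldn5, Vegfa, Eng and Pecam1 also varied more than most, with SDs of 0.241, 0.236, 0.238 and 0.205, and Kdr and both Flt1 probe sets varied less, with SDs of 0.108, 0.104 and 0.105.

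The 3 probe sets whose 8 group means were most like those of Cldn5 were of Sbds, Rbp4 and Helb, with Pearson r of 0.995, 0.981 and 0.975 across 8 group means of the same arrays. Sbds, a ribosome maturation factor, changed by -0.36 with P4 in WT uteri at 40 h (adjusted p = 0.0359, limma), and Rbp4, the retinol carrier of plasma, which is secreted by liver and fat, by -1.38 (adjusted p = 0.00102). Helb, a DNA helicase, was at -0.30 (adjusted p = 0.127). Among the other endothelial and angiogenic genes, r with Cldn5 ran from -0.82 for Cdh5 to 0.69 for Pecam1. The 3 probe sets above were picked for the highest r, so the lower r of the listed genes follows from that choice.

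Around the 9 genes, 4 lists held 128 further genes of endothelium, angiogenesis and cell junctions, of which 101 were measured by 139 probe sets. Of the 128, 7 also stand in marker lists of other cells used here: Fabp4 (adipose), Flt4 (lymphatic), Angpt1 and Pdgfrb (pericyte) and the claudins Cldn3, Cldn4 and Cldn7 (epithelium). In WT uteri at 40 h, 4 of the 101 genes passed, or 3.96%, beside 1.54% of all probe sets, with Mdk, Sparc and Tfpi higher and Efnb2 lower. At 4 h in WT uteri 1 passed, Efnb2, or 0.990%, beside 0.708% of all probe sets. A gene counted where any of its probe sets passed, so these shares of genes are larger than shares of the 139 probe sets would be. They are not of the same unit as the shares of all probe sets. In PRKO uteri 0 passed by limma at either time. At an unadjusted p under 0.05 there were 3 of 32 endothelial identity genes, 1 of 12 VEGF and angiopoietin genes, 2 of 46 regulators and 0 of 13 junction genes at 4 h, and 4, 1, 2 and 0 at 40 h, beside 1.90% of all probe sets at 4 h and 6.69% at 40 h. For the difference of the effect between genotypes 0 passed, with 1, 1, 4 and 2 unadjusted at 4 h and 2, 0, 9 and 1 at 40 h, beside 3.49% and 9.10% of all probe sets. Of 32 endothelial identity genes, 1 rose and 0 fell in WT uteri at 40 h (4 had an unadjusted p under 0.05, beside 11.7% of all probe sets), with a median log2 fold change of -0.00. Of 12 genes of VEGF and angiopoietin signalling 0 passed (1 unadjusted), with a median of -0.04 and values from -0.26 for Ptprb, the phosphatase VE-PTP that acts on Tek, to 0.13 for Pgf, placental growth factor. Of 46 angiogenesis regulators 2 rose and 1 fell (17 unadjusted, a larger share than the 11.7% of all probe sets, median -0.04). Of 13 further junction genes 0 passed (2 unadjusted, median -0.05), beside a median of 0.00 over all probe sets. Lymphatic markers passed in 0 of 5 genes (2 unadjusted) and pericyte markers in 0 of 8 (3 unadjusted), with medians of -0.09 and -0.11. Fabp4, a fatty acid carrier, was at -0.74 (adjusted p = 0.127), the lowest of the endothelial identity genes.

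Efnb2, ephrin-B2, a ligand of Eph receptors that marks arterial endothelium and is also made by other cells, had 1376, 1550.4 and 1269 in PRKO P4 uteri at 4 h, against 1690.1, 1623 and 1537 in PRKO vehicle uteri. WT uteri at 4 h had 663, 683 and 626 with P4, against 1533, 1271 and 972 with vehicle, and in WT uteri at 40 h 728, 681 and 588 with P4, against 976, 1051 and 1080.1 with vehicle. The WT P4 arrays were below all vehicle arrays at both times. Of all probe sets, 6.67% had WT arrays that did not overlap at 4 h and 19.8% at 40 h. Efnb2 is named because it passed there, so its separation adds no support. The log2 fold changes in WT uteri were -0.88 ± 0.12 at 4 h (adjusted p = 0.000759, limma) and -0.62 ± 0.12 at 40 h (adjusted p = 0.0103), beside -0.21 and 0.15 in PRKO uteri. Those genotype differences of the effect were 0.67 ± 0.18 (adjusted p = 0.322) and 0.76 ± 0.18 (adjusted p = 0.119) and did not pass, whereas under P4 itself PRKO exceeded WT by 1.05 ± 0.12 at 4 h (adjusted p = 4.04e-05) and by 1.07 ± 0.12 at 40 h (adjusted p = 2.72e-05). In vehicle uteri PRKO was also above WT in the estimates, by 0.38 ± 0.12 at 4 h (interval 0.12 to 0.63, adjusted p = 0.546) and by 0.31 ± 0.12 at 40 h (interval 0.05 to 0.57, adjusted p = 1.00), which did not pass. The 40 h call was lost without P4 array 3 (adjusted p = 0.0690) or without vehicle array 3 (0.0536), and the 4 h call when the 6 arrays compared were fitted alone (0.178). Same-numbered WT arrays at 4 h deviated together, and with the replicate number as a block 3 of the 101 genes passed there in place of 1, the others being Cxcr4 (-0.86, adjusted p = 0.0146) and Cldn1 (0.44, adjusted p = 0.0481), which are named here after their values were seen. Leaving out 1 array at 4 h gave between 1 and 4 genes, with 4 without P4 array 3 and 2 without vehicle array 2, and 2 passed without both arrays of high Gapdh ratio.

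Mdk, midkine, a heparin-binding growth factor, had 2303, 1948.5 and 1766 in WT P4 uteri at 40 h, against 958, 956 and 1220.3 in WT vehicle uteri (0.92 ± 0.22, adjusted p = 0.0325, limma). Sparc, a matrix protein made by stroma and endothelium, had 2157, 2723 and 2605 with P4, against 1348, 1781 and 1904 with vehicle (0.57 ± 0.13, adjusted p = 0.0207). Tfpi, the inhibitor of tissue factor, had 233, 252 and 208 with P4, against 136, 179 and 171 with vehicle (0.44 ± 0.09, adjusted p = 0.00787). In that WT comparison at 40 h, 5 of 15 stroma markers passed as higher and 7 of 14 adipose markers as lower. Mdk, Sparc and Tfpi all had every WT P4 array above every WT vehicle array there. Of all probe sets, 19.8% had arrays that did not overlap there. The 3 genes are named because they passed there, so their separation adds no support. In PRKO uteri at 40 h they were at 0.25, 0.17 and 0.17 in the same order and did not pass, and the genotype differences of the effect, -0.67, -0.40 and -0.28, did not pass either (adjusted p = 0.541 each). Under P4 at 40 h Sparc was lower in PRKO than in WT uteri, by a log2 difference of -0.48 ± 0.13 (adjusted p = 0.0467), whereas Mdk at -0.52 ± 0.22 (adjusted p = 0.172) and Tfpi at -0.27 ± 0.09 (adjusted p = 0.0872) did not pass. The Mdk call was lost when any 1 of the 6 arrays was left out (adjusted p 0.0504 to 0.160). That of Sparc was lost without P4 array 2 (0.123), P4 array 3 (0.0898) or vehicle array 1 (0.112), and that of Tfpi without P4 array 2 (0.0651). With the 6 compared arrays fitted alone both were lost too (0.0775 for Sparc and 0.0659 for Tfpi). The count of 4 was equal there, but with Efnb2, Mdk, Col18a1 and Cxcr4, of which Col18a1 and Cxcr4 are named after their values were seen. The count of 4 genes became 1 without P4 array 2, 1 without P4 array 3 and 2 without vehicle array 3.

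**Figure D4:**
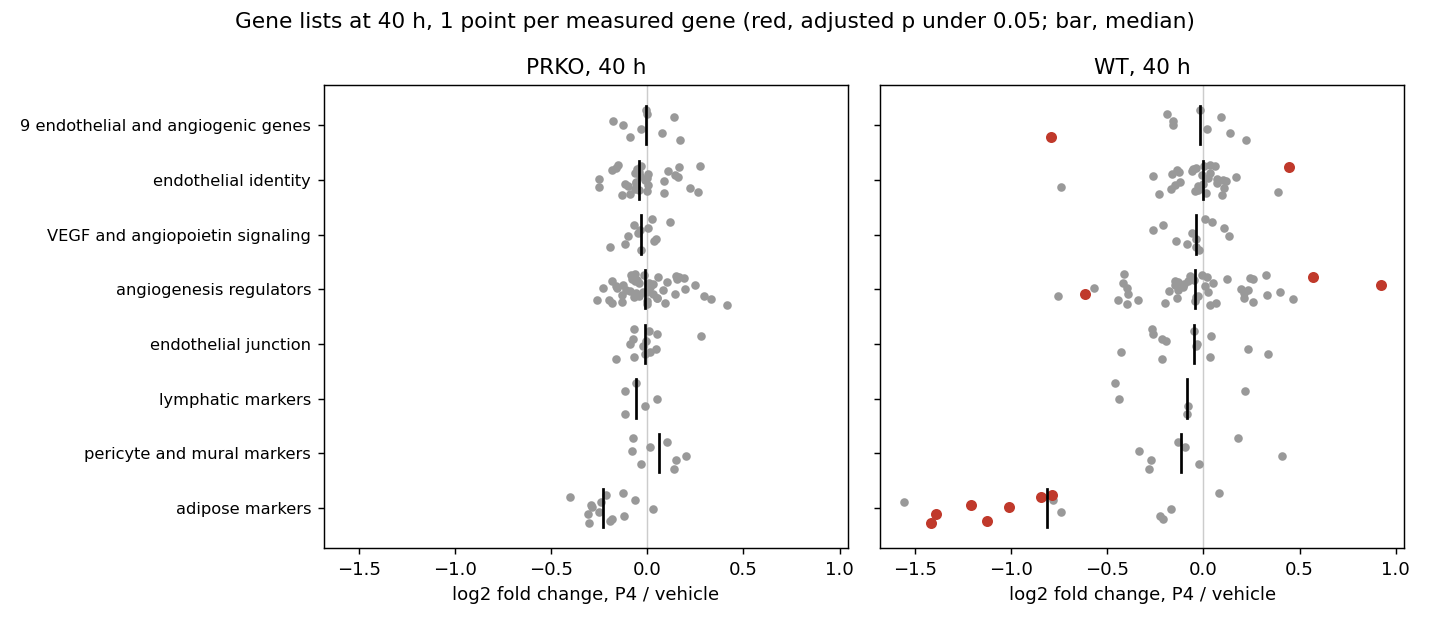
Log2 fold change of P4 over vehicle at 40 h in PRKO uteri (left) and WT uteri (right), 1 point per measured gene in 8 lists, with black bars at the list medians and red points at an adjusted p under 0.05. The endothelial lists are centred near 0 in both genotypes, with Cldn5 at -0.79 as the red point of the 9 genes in WT uteri, and the adipose markers have a median of -0.81 in WT and -0.23 in PRKO uteri.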

How the data were processed

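Per the file header, the deposited table gives 1 signal intensity per probe set and array on a linear scale. The submitters' processing notes name MAS5 without a version, settings or genome build. Of 12488 probe sets, 66 controls were left out. Arrays were scaled so that the mean without the 2% of values at each end was 500 (multipliers from 0.954 to 1.03). The log2 of this value plus 32 was analysed, which understates the change of dim genes. Of the probe sets tested, 10833 named 1 gene, 396 several and 1193 none in the platform annotation. For a gene of a list with several probe sets, the one of highest mean signal gives its value, and a gene counts as passing in the 4 pathway lists where any of its probe sets did. The 9 listed genes were described for every probe set.

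Group means of all 24 arrays were fitted with limma 3.58.1 (R 4.3.3), with an intensity trend, 16 residual and 4.98 prior degrees of freedom, and two-sided tests adjusted by Benjamini-Hochberg within each of 13 comparisons. The fit was tested on simulated data. The precision rests on 3 arrays per group. Named besides were pathway genes that passed in a P4 comparison or a difference of P4 effects, and the 3 probe sets most like a listed one that passed. The genes, lists and rules were chosen with earlier results of these data known. Replicate numbers carry no stated pairing. Deviations of same-numbered arrays correlated above 0.1 in every pair only for P4 against vehicle in WT uteri at 4 h (0.114, 0.516 and 0.350). The numbers may mark pairs there, but the reported fits left the arrays unpaired, and the block was run as an alternative. Both arrays numbered 2 there had a high Gapdh ratio, and its part in their correlation was not tested. Alternatives were other scalings, offsets, filters, priors, arrays, covariates, a replicate block and leaving out each array.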

Additional observations from a re-analysis of the deposited data

How the results depend on the processing

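Of 242 counts of listed probe sets that passed under an alternative, 231 equalled the reported count, and in 11 of 13 comparisons none differed. The reported count was 0 in every comparison but P4 in WT uteri at 40 h, so most of these agreements are of 0 with 0. For P4 in WT uteri at 40 h the count of 1 became 0 with the adipose marker mean as a covariate. That mean was lower on every WT P4 array at 40 h than on any other array, so this fit can barely separate it from P4. The count stayed 1 in only 1 of the 6 fits that left out 1 of the compared arrays and became 0 in the others. For PRKO against WT under P4 at 40 h the count of 0 became 1 (Cldn5) in 5 settings: with no rescaling (adjusted p = 0.0475), with arrays of that time alone (0.00758), with the compared arrays alone (0.00800), with the replicate block (0.0149) and with the Gapdh ratio as a covariate (0.0268). The Cldn5 change in WT uteri at 40 h kept its sign in all 17 alternatives. The difference of its P4 effect between genotypes passed in none (adjusted p between 0.0962 and 0.937), nor did that between times (0.0560 to 0.999).

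For the 101 pathway genes, alternatives were applied after seeing the data. The 4 h WT count of 1 became 0 with the compared arrays alone, 3 with the replicate block, 2 without both arrays of high Gapdh ratio and 2 with that ratio as a covariate, and ran from 1 to 4 when 1 array was left out. The 40 h WT count of 4 became 15 with arrays of that time alone, 11 with the replicate block, 10 with the Gapdh covariate and 0 with the adipose covariate, and ran from 1 to 4 when 1 array was left out. The block moved no other count of listed probe sets, and P4 arrays at 40 h correlated best with the vehicle array of their own number in both genotypes, which is a hint from the data only. Over all probe sets, the WT count of 191 at 40 h ran from 1 (adipose covariate) to 539 (arrays of that time alone) and that of 88 at 4 h from 10 to 138. For P4 in PRKO uteri the counts of 0 reached 2 at 4 h and 1 at 40 h. The counts for PRKO against WT under P4, 152 at 4 h and 322 at 40 h, ran from 65 to 255 and from 30 to 1147. In vehicle uteri they were 23 at 4 h (1 to 34) and 8 at 40 h (1 to 13). The genotype differences of the effect were 12 at 4 h (1 to 42) and 13 at 40 h (0 to 39), and the WT difference between times was 59 (16 to 112). For 40 h against 4 h in vehicle uteri, 0 in PRKO ran to 365 and 36 in WT from 0 to 442. The cause of these shifts was not tested.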
